A study of Mus musculus with 18 samples.

Results

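The measurements concern 10 genes of glycolysis and of the transcriptional response to low oxygen, *Slc2a1*, *Hk2*, *Pfkl*, *Pfkp*, *Aldoa*, *Pkm*, *Ldha*, *Pdk1*, *Vegfa* and *Bnip3*, out of 21694 genes that were listed in both tables of read counts per gene. They were chosen by name from what they are known to do, with earlier results of these data known. Each was found by its symbol and Ensembl gene ID. *Aldoa* was listed under 2 IDs in the table of the fibroblasts, and the ID present in both tables was used. The libraries came from mice in which repeat B of *Xist*, the noncoding RNA that silences one X chromosome in female cells, had been deleted by CRISPR/Cas9 in the germline, so that every cell of a RepB-/- animal carried the deletion, and from wild-type (WT) mice. Polyadenylated RNA was sequenced from primary mouse embryonic fibroblasts (MEFs, labelled as tail tissue and as a primary MEF cell line) and from liver, with 3 RepB-/- and 3 WT libraries of each, distinguished in the labels by the letters B and W. Neither group received a treatment. The sex and age of the liver donors and the passage of the MEFs were not given in the sources used here, and nothing stated that the 3 libraries of a group came from separate cultures or animals, so the p-values measure only the spread between these libraries. The MEFs were grown in high-glucose medium with serum, and no low-oxygen culture was described.

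Glycolysis splits glucose into pyruvate in the cytosol and yields ATP without oxygen. Pyruvate is then either oxidised in mitochondria or reduced to lactate. When oxygen falls, the alpha subunits of the hypoxia-inducible factors (HIFs) escape hydroxylation by prolyl hydroxylases and destruction through the von Hippel-Lindau protein, pair with ARNT and activate genes of glucose uptake, glycolysis, blood vessel growth and mitochondrial turnover. Fibroblasts in culture use the widely expressed isozymes, whereas adult hepatocytes rely on isozymes and transporters of their own, such as PKLR and SLC2A2, and can run the pathway backwards to make glucose.

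The MEF libraries held 11540344 to 20587556 counts, with all 3 RepB-/- libraries deeper than the WT libraries, and the liver libraries held 37682201 to 51542709. *Xist* itself was counted in liver at 14494 to 26345 reads in 5 libraries and at 4 reads in RepB-/- replicate 2, which alone carried substantial Y-linked RNA (86.2 CPM, read counts scaled to a common library size, summed over 4 genes, against at most 0.0292 in the other liver libraries). Y-linked RNA with nearly no *Xist* is the pattern of a male, whereas RepB-/- names a deletion on both X chromosomes. The library labelled RepB-/- replicate 2 was kept under its label, and liver values are also given without it. A gene-level *Xist* count cannot show the internal deletion, and *Xist* was not analysed here in MEFs. Replicate 1 of both genotypes stood apart in liver. Its summed fetal liver markers were 5970 CPM in RepB-/- and 4753 CPM in WT, against 4.50 to 20.1 CPM in the other 4 libraries. The tissue labels were borne out by the markers. None of the 8 hepatocyte markers passed the count filter in MEFs, and their sum was at most 2.97 CPM there against 112100 to 196700 CPM in liver. All 8 fibroblast markers passed in both tissues, with sums of 13290 to 21710 CPM in MEFs and 262.5 to 1373 CPM in liver. In bulk RNA, fewer cells of a type and less RNA per cell cannot be told apart.

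In MEFs, 5 of the 10 genes differed between the genotypes and the changes went in both directions. *Pdk1*, *Pfkl* and *Bnip3* were higher in RepB-/- MEFs, *Vegfa* and *Slc2a1* were lower, and the other 5 did not pass the test (adjusted p under 0.05, edgeR's quasi-likelihood test, Benjamini-Hochberg adjusted across all genes tested). Of all 13306 genes tested, 39.1% passed, 19.4% higher and 19.7% lower (37.6% with the replicate number as a block). DESeq2 called 31.4% of the 16355 genes to which it gave an adjusted p. A share of 50.0% among 10 genes thus lay near that of the whole transcriptome. The median log2 fold change of the 10 genes was 0.09, and that of all genes was 0.00. Levels are given as CPM on library sizes scaled by trimmed means (TMM), and a log2 fold change is RepB-/- minus WT. Scaling by library totals alone, an alternative chosen after seeing the data, lowered the median log2 fold change of all genes to -0.11 and turned the split of all calls from 2581 higher and 2621 lower to 1645 higher and 3623 lower (12.4% and 27.2%, together 39.6%). Under it 5 of the 10 genes passed as well, with *Pdk1* and *Pfkl* higher and *Vegfa*, *Slc2a1* and *Hk2* lower.

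**Figure D1:**
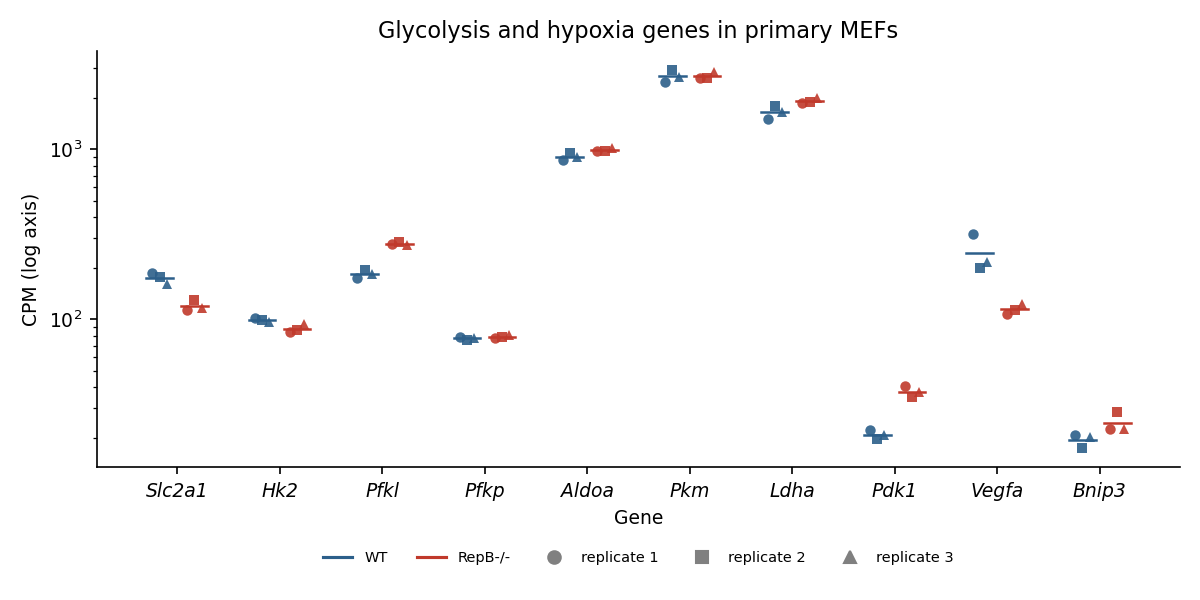
CPM (log axis) of the 10 genes in each MEF library, WT in blue and RepB-/- in red, with a symbol for each replicate number and a bar at the mean. The libraries of the genotypes are separated for *Slc2a1*, *Pfkl*, *Pdk1* and *Vegfa* by more than the spread within either genotype, whereas those of *Pfkp* and *Pkm* lie on the same level.

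Glucose entry was represented by *Slc2a1*, which encodes the transporter GLUT1 that carries most glucose into fibroblasts, and by *Hk2*, the hexokinase that phosphorylates it and is bound to mitochondria. *Slc2a1* had 113.7, 129.7 and 116.2 CPM in the RepB-/- libraries and 186.4, 177.6 and 160.6 CPM in the WT libraries. Every RepB-/- library lay below every WT library, with a log2 fold change of -0.54 (SE 0.08, adjusted p = 0.00016), or 1.46-fold higher in WT. *Hk2* had 84.2, 86.6 and 94.2 CPM in RepB-/- and 101.9, 98.8 and 97.1 CPM in WT. Its libraries did not overlap either, but the difference of -0.17 (SE 0.07) did not pass the test (adjusted p = 0.0788). With library totals it was -0.28 and passed (adjusted p = 0.0102).

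The committed step of glycolysis is catalysed by phosphofructokinase, whose liver-type and platelet-type subunits are encoded by *Pfkl* and *Pfkp*. *Pfkl* had 278.6, 283.6 and 273.9 CPM in RepB-/- and 176.2, 194.7 and 185.9 CPM in WT. It was 1.5-fold higher in RepB-/- MEFs, a log2 fold change of 0.59 (SE 0.07, adjusted p = 3.1e-05), and no libraries overlapped. *Pfkp* had 78.0, 78.7 and 80.8 CPM in RepB-/- and 79.1, 75.3 and 77.7 CPM in WT. These values overlapped, and the fitted difference of 0.03 (SE 0.07) fell to -0.08 with library totals without passing in either case (adjusted p = 0.728 and 0.402). The gene of the muscle-type subunit, *Pfkm*, named after its values were seen, was higher in RepB-/- MEFs by 0.30 (SE 0.09, adjusted p = 0.0195), which did not pass with library totals (0.19, adjusted p = 0.0973). The difference between the subunit genes was not tested.

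*Aldoa*, *Pkm* and *Ldha* encode the muscle-type aldolase, the pyruvate kinase of most proliferating cells and the lactate dehydrogenase subunit that favours lactate formation. *Aldoa* had 983, 981 and 1019 CPM in RepB-/- and 863, 948 and 902 CPM in WT. Its libraries were separated but the difference of 0.14 (SE 0.07) did not pass (adjusted p = 0.152). *Ldha* had 1870, 1898 and 1997 CPM in RepB-/- and 1517, 1794 and 1669 CPM in WT, again without overlap, and its difference of 0.21 (SE 0.08) had an adjusted p of 0.0569. DESeq2 called it (adjusted p = 0.0155), and library totals lowered it to 0.10 (adjusted p = 0.192). *Pkm* was the gene closest to equality, with 2632, 2629 and 2840 CPM in RepB-/- and 2476, 2942 and 2682 CPM in WT (log2 fold change 0.00, SE 0.09). Gene counts do not separate the splice forms of *Pkm*, and *Aldoa* and *Ldha* have near-identical copies in the genome with which reads may be shared, so their values are less certain than those of the other genes.

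*Pdk1*, *Vegfa* and *Bnip3* act outside the enzyme chain and are classical HIF targets. *Pdk1* encodes a kinase that inactivates pyruvate dehydrogenase and so limits the oxidation of pyruvate in mitochondria. It had 40.7, 34.7 and 37.2 CPM in RepB-/- and 22.4, 19.9 and 20.9 CPM in WT. This was the largest rise among the 10 genes, 1.79-fold, with a log2 fold change of 0.84 (SE 0.10, adjusted p = 2.9e-05). *Vegfa*, the angiogenic growth factor, moved the other way, with 107.4, 113.9 and 123.8 CPM in RepB-/- and 318.4, 200.9 and 218.4 CPM in WT. It was 2.14-fold higher in WT (log2 fold change -1.09, SE 0.13, adjusted p = 5.1e-05), and without WT replicate 1, the highest library and the shallowest of all, the difference was -0.87. *Bnip3*, a mitochondrial receptor for mitophagy, had 22.6, 28.4 and 22.8 CPM in RepB-/- and 20.9, 17.4 and 20.3 CPM in WT. Its rise of 0.33 (SE 0.12, adjusted p = 0.0366) was lost with DESeq2 (adjusted p = 0.056), with library totals (0.22, adjusted p = 0.19), with the replicate number as a block (adjusted p = 0.0506), and without RepB-/- replicate 2 (0.23, adjusted p = 0.185), WT replicate 2 (adjusted p = 0.124) or WT replicate 3 (adjusted p = 0.0574). Across the 10 genes, the libraries of the genotypes did not overlap for 8, with 5 higher and 3 lower in RepB-/- MEFs, where 52.2% of all genes tested did not overlap (26.4% higher and 25.8% lower).

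**Figure D2:**
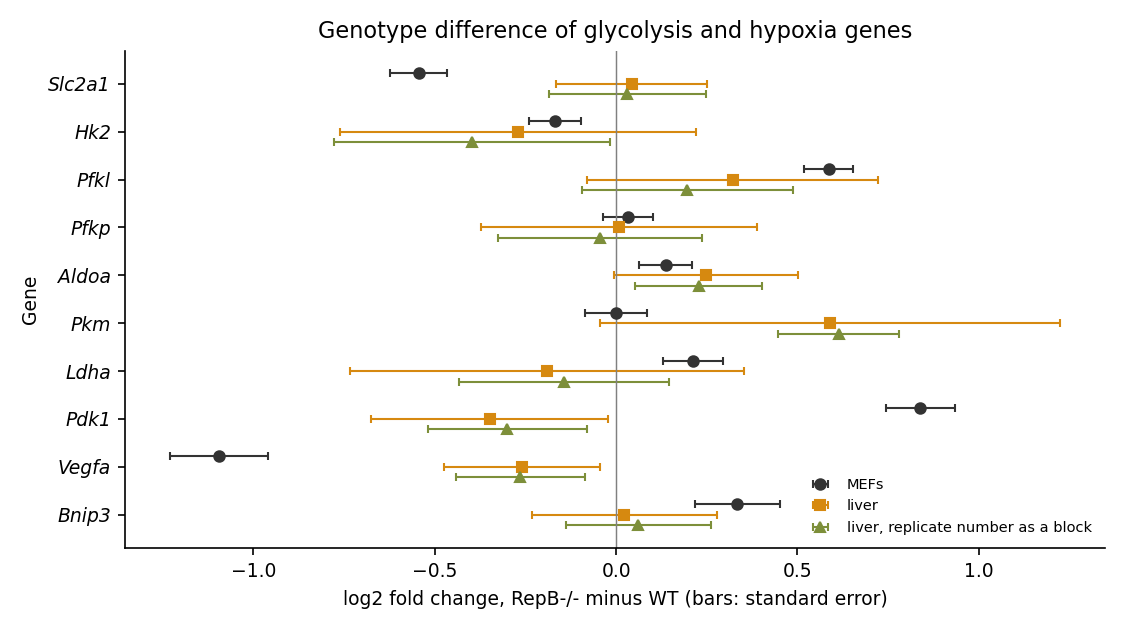
Log2 fold change of the 10 genes, RepB-/- minus WT, in MEFs (circles), in liver (squares) and in liver with the replicate number as a block (triangles), with bars of 1 standard error. In MEFs *Pdk1* lies at 0.84 and *Vegfa* at -1.09, and the liver values carry bars several times as wide.

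Marker genes of other cell types and of cycling cells also differed between the MEF groups. All 6 cycling markers rose in RepB-/- MEFs, with a summed level of 308.0 to 327.4 CPM against 189.0 to 212.7 CPM in WT. Of the 5 leukocyte markers tested, *Lyz2*, *Adgre1* and *Csf1r* rose and *Cd68* fell, with a sum of 117.1 to 151.1 CPM against 50.4 to 64.9 CPM. Most of that sum was *Lyz2* (90.8 to 120.0 CPM against 20.3 to 42.7 CPM), and *Ptprc*, the pan-leukocyte marker, lay at 0.878 to 1.52 CPM against 0.713 to 1.12 CPM (adjusted p = 0.512). Of the 4 endothelial markers, *Pecam1*, *Cdh5* and *Kdr* fell and *Tek* rose, with a sum of 19.8 to 21.5 CPM against 28.8 to 36.2 CPM. Of the 8 fibroblast markers, 4 rose and 1 fell, with a sum of 19560 to 21710 CPM against 13290 to 17530 CPM. Among 5 keratinocyte and muscle markers, *Krt14* rose (3.29 to 6.01 CPM against 0.561 to 2.26 CPM) and the others did not pass. The part of these cell types in the values of the 10 genes was not tested.

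The remaining enzymes of the pathway were measured in the same MEF libraries from a list of 17. Of these, 15 were tested, 8 rose, 4 fell and 3 did not pass. The share was 80.0%, against 39.1% of all genes tested, in a list chosen with earlier results of these data known. The median log2 fold change of the list was 0.23. With library totals 4 rose and 4 fell. *Gapdh*, *Eno3* and *Aldoc* were among the largest changes. *Gapdh*, which oxidises glyceraldehyde phosphate and was the reference gene of the study's quantitative PCR, had 81.7, 82.6 and 82.9 CPM in RepB-/- and 225.7, 255.7 and 230.2 CPM in WT, a log2 fold change of -1.53 (SE 0.07, adjusted p = 1.15e-08). The WT level was 2.88-fold that of RepB-/-, with a spread within each genotype far smaller than the gap. *Gapdh* was also listed well under *Pgk1*, the enzyme that follows it in the pathway, with 59.6 FPKM (reads per transcript length and library total) in WT against 365.0 for *Pgk1*. *Gapdh* has many near-identical pseudogenes, so reads may have been lost to them and its level is uncertain. *Eno3*, the muscle enolase, fell by 1.49 (SE 0.20, adjusted p = 8.1e-05), from 14.2 to 26.7 CPM in WT to 6.47 to 8.11 CPM. *Aldoc*, the brain aldolase, rose by 1.09 (SE 0.20, adjusted p = 0.00092) to 8.92 to 15.4 CPM from 4.70 to 6.33 CPM.

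Of the abundant enzymes of the lower pathway, *Pgk1* is the X-linked one. It had 1139, 1079 and 1120 CPM in RepB-/- and 726, 826 and 816 CPM in WT, a rise of 0.49 (SE 0.08, adjusted p = 0.00028), and of 0.38 with library totals. Chosen after their values were seen, *Eno1* (0.55, adjusted p = 0.0003) and *Tpi1* (0.45, adjusted p = 0.00064) rose as well and passed with library totals, at 0.44 and 0.34. *Pgk1* and *Eno1* also have near-identical copies. Among the genes named along the chain, *Pfkl*, *Pfkm*, *Aldoc*, *Tpi1*, *Pgk1* and *Eno1* rose, and *Gapdh* and *Eno3* fell. These names are no count over the chain, because *Pfkm*, *Tpi1* and *Eno1* were named after their values were seen. The counts for the list of 17 are given above, and *Pfkm* did not pass with library totals. The values of *Hk2*, *Pfkp*, *Aldoa*, *Pkm* and *Ldha* did not pass.

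**Figure D3:**
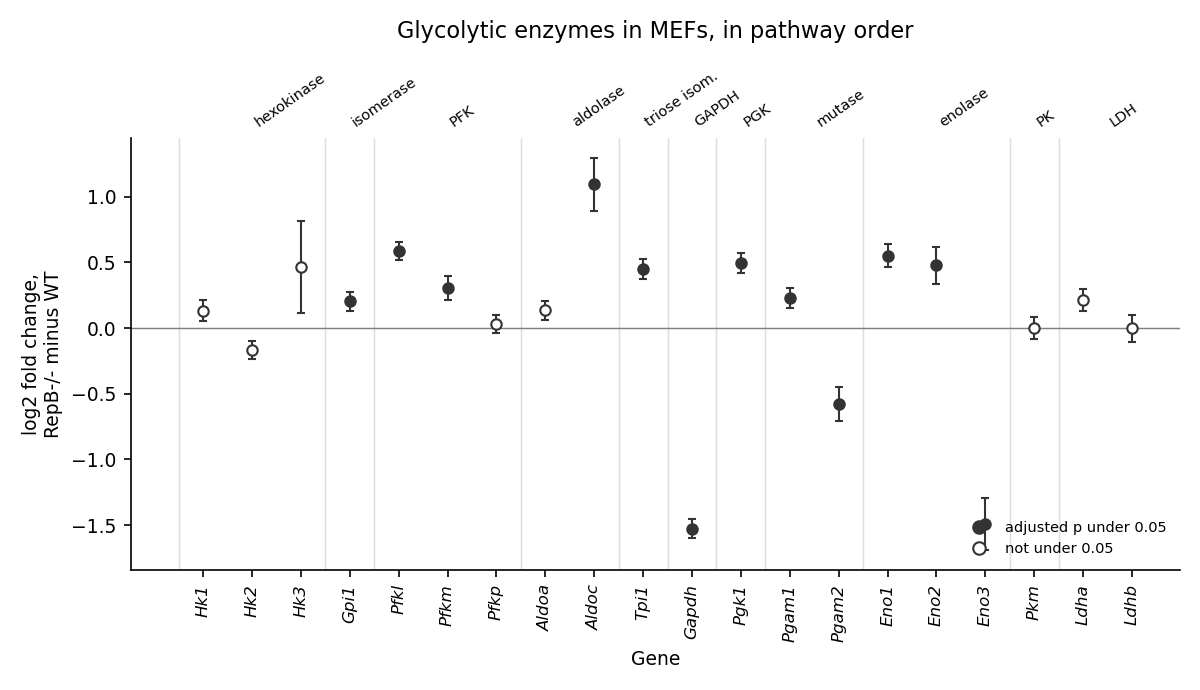
Log2 fold change of glycolytic enzymes in MEFs (RepB-/- minus WT, bars of 1 standard error), in the order of the pathway, filled where the adjusted p is under 0.05. *Gapdh* at -1.53 lies between *Tpi1* at 0.45 and *Pgk1* at 0.49, the enzymes before and after it.

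In glucose and lactate transport and the control of pyruvate, 3 of 18 genes tested rose, 3 fell and 12 did not pass. The share was 33.3%, against 39.1% of all genes, and with library totals 1 rose and 3 fell. *Slc2a3*, which encodes the high-affinity transporter GLUT3, fell as *Slc2a1* did, with 2.91, 3.05 and 4.46 CPM in RepB-/- and 11.7, 11.6 and 8.49 CPM in WT (log2 fold change -1.60, SE 0.21, adjusted p = 7e-05). *Slc2a4*, the insulin-responsive transporter, lay at 1 to 8 counts in RepB-/- and 9 to 15 in WT, and its call (-1.81, adjusted p = 0.0214) was lost with DESeq2 (adjusted p = 0.0649). *Slc2a1* remained the most abundant of these transporters, at 32.9 FPKM in RepB-/- and 51.9 FPKM in WT against 0.46 and 1.52 FPKM for *Slc2a3*. Beside *Pdk1*, the X-linked kinase gene *Pdk3* had a difference of 0.24 (adjusted p = 0.0245) that was lost with library totals (0.12, adjusted p = 0.221). The opposing phosphatase genes went in different directions, *Pdp1* rising by 0.65 (SE 0.12, adjusted p = 0.0011) and *Pdp2* falling by 0.35 (SE 0.13, adjusted p = 0.0395), the second of which DESeq2 did not call (adjusted p = 0.087).

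Among 22 other HIF target genes, 8 rose, 4 fell and 10 did not pass, a share of 54.5%, and with library totals 7 rose and 5 fell. Among all genes, 39.1% passed in about equal numbers of either direction. *Adm*, which encodes the vasodilator adrenomedullin, had 389.7, 348.9 and 348.4 CPM in RepB-/- and 207.8, 219.1 and 213.1 CPM in WT (log2 fold change 0.76, SE 0.07, adjusted p = 5.8e-06). *Lox*, the collagen cross-linking enzyme, rose by 0.74 (SE 0.11, adjusted p = 0.00023). *Ndrg1*, a stress-responsive gene, had 14.1, 14.5 and 11.9 CPM in RepB-/- and 39.2, 24.5 and 23.6 CPM in WT (log2 fold change -1.10, SE 0.17, adjusted p = 0.00027). *Hmox1*, the haem-degrading enzyme that also answers to oxidative stress, had 1216, 1458 and 1880 CPM in RepB-/- and 4256, 2578 and 2647 CPM in WT (log2 fold change -1.06, SE 0.18, adjusted p = 0.00052). *Vegfa*, *Ndrg1* and *Hmox1* shared their highest value, in WT replicate 1, and without it *Ndrg1* lay at -0.835 and *Hmox1* at -0.78, both still called.

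Of the 10 HIF pathway regulators tested, 3 rose, 1 fell and 6 did not pass, a share of 40.0% against 39.1% of all genes. With library totals 3 rose and 3 fell. *Hif1a*, the widely expressed oxygen-regulated subunit, had 157.0, 200.9 and 147.8 CPM in RepB-/- and 91.5, 107.0 and 110.9 CPM in WT (log2 fold change 0.71, SE 0.11, adjusted p = 0.00024). Its partner genes *Arnt* (0.34, SE 0.07, adjusted p = 0.002) and *Arnt2* (0.83, SE 0.09, adjusted p = 2.7e-05) rose too. *Epas1*, which encodes HIF2 alpha, had a difference of 0.02 (SE 0.12, adjusted p = 0.912). The coactivator gene *Ep300* fell by 0.34 (SE 0.09, adjusted p = 0.0064). HIF alpha subunits are controlled mainly through protein stability, which these counts do not measure.

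**Figure D4:**
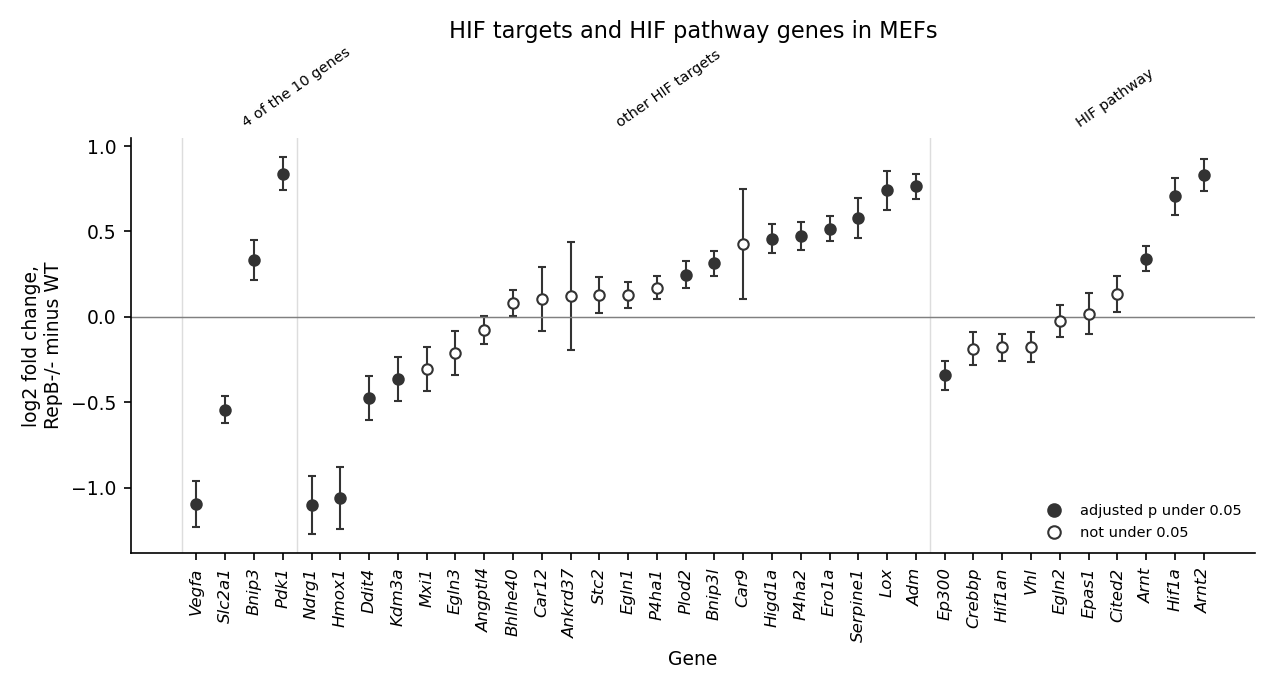
Log2 fold change in MEFs (RepB-/- minus WT, bars of 1 standard error) of 4 of the 10 genes, of 22 other HIF target genes and of 10 HIF pathway regulators, filled where the adjusted p is under 0.05. Targets run from -1.10 (*Ndrg1*) to 0.84 (*Pdk1*), with called genes on both sides of 0.

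HIF binds a short core, A or G followed by CGTG, and the 250 bases before the RefSeq start nearest to the gene start in the liver table were searched for ACGTG and GCGTG on both strands (mouse build GRCm38.p6; all 10 genes matched). At least 1 match was found for 7 of the 10 genes, against 38.6% of 32851 promoter windows of the same length, and against 51.8% of the 18836 windows whose GC content was at least that of the lowest of the 10. That lowest was *Aldoa* at 50.4%, under the median of 52.4% of all windows, and the other genes held 59.2% to 72.4%. The compared windows are thus not matched in GC content to most of the 10 genes. The genes differed from each other, with 5 matches each for *Ldha* and *Bnip3*, 3 for *Pfkp*, 2 each for *Hk2* and *Slc2a1*, 1 each for *Pfkl* and *Pdk1*, and none in these windows for *Aldoa*, *Pkm* and *Vegfa*. A palindromic CACGTG counts as 2 overlapping matches of ACGTG, which occurred at 2 places for *Ldha* and 1 for *Bnip3*. For *Ldha* and *Aldoa*, the RefSeq start lay 4329 and 8661 bases from the start in the counts table. Of the called genes whose windows hold a match, *Pfkl*, *Pdk1* and *Bnip3* were higher and *Slc2a1* was lower in RepB-/- MEFs. Whether the core bears on the direction of a change was not tested. Each of these 4 windows is written 5′ to 3′ along the gene and ends at the base before its start. Matches are in capitals (CACGC and CACGT are the cores read from the other strand).
Pfkl, chr10:78009808-78010057, minus strand: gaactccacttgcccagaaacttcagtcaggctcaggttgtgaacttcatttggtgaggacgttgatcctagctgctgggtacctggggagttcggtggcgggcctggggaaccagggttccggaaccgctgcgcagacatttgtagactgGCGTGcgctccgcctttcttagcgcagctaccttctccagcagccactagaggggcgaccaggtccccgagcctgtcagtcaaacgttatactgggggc
Pdk1, chr2:71872974-71873223, plus strand: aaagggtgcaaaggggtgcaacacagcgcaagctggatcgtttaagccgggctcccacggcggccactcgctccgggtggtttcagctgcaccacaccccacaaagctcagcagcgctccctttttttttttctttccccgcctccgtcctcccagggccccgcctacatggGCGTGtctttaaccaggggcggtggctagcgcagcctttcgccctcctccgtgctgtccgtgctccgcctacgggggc
Bnip3, chr7:138909507-138909756, minus strand: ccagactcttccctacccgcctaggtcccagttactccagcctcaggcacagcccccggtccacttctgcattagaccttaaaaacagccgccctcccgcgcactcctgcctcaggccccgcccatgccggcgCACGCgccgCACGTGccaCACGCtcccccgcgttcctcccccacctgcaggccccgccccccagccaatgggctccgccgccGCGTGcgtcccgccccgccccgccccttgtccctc
Slc2a1, chr4:119108495-119108744, plus strand: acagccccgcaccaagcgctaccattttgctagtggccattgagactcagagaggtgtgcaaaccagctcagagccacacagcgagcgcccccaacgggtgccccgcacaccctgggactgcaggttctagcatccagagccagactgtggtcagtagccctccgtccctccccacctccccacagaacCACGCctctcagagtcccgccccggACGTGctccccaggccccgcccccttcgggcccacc
The match nearest to the start lay at position -99 for *Pfkl*, -78 for *Pdk1*, -35 for *Bnip3* and -36 for *Slc2a1*, counted from the first base of each match to the start. A match is a description of the sequence, and no binding was measured here.

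Per length, *Pkm* and *Ldha* were the most abundant of the 10 genes in MEFs. In WT the authors' FPKM values fell in the order *Pkm* (559.9 ± 29.4, SD, n = 3), *Ldha* (520.0 ± 25.4), *Aldoa* (322.4 ± 4.69), *Vegfa* (60.0 ± 17.8), *Slc2a1* (51.9 ± 5.18), *Pfkl* (28.9 ± 0.453), *Hk2* (17.3 ± 1.01), *Bnip3* (8.98 ± 1.13), *Pfkp* (6.0 ± 0.364) and *Pdk1* (2.81 ± 0.273). The neighbours *Pkm* and *Ldha*, and *Vegfa* and *Slc2a1*, lay within the sum of their SDs. In RepB-/- MEFs *Ldha* (558.0 ± 18.8) and *Pkm* (518.9 ± 22.1) again lay within it, and *Pfkl* (40.1 ± 0.901) stood above *Slc2a1* (32.9 ± 2.56) and *Vegfa* (25.8 ± 1.84). *Pdk1* stayed the least abundant at 4.64 ± 0.347 FPKM. The FPKM were scaled to totals, so ratios between genotypes taken from them differ from the TMM values above.

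In liver, none of the 10 genes differed between the genotypes by edgeR, none had an unadjusted p under 0.05, and DESeq2 called none. Among all 16080 genes tested by edgeR, 502 had an unadjusted p under 0.05 and 0.0373% passed (6 genes). With the replicate number as a block 0.0498% passed, and with a term that set replicate 1 apart 0.056%. DESeq2 called 0.425% of the 18811 genes to which it gave an adjusted p. These alternatives called none of the 10 either. Without the library labelled RepB-/- replicate 2, none of the 10 passed or had an unadjusted p under 0.05, and edgeR called 0 genes (460 at an unadjusted p under 0.05). The log2 fold changes of the 10 genes then ran from -0.55 (*Pdk1*) to 0.82 (*Pkm*), with *Vegfa* at -0.33, *Hk2* at -0.23, *Ldha* at -0.16, *Bnip3* at -0.01, *Slc2a1* at 0.11, *Pfkp* at 0.27, *Pfkl* at 0.28 and *Aldoa* at 0.33. In no case did the 3 RepB-/- libraries lie wholly above or below the 3 WT libraries, which 8.05% of all genes did. The spread between libraries was much wider than in MEFs, with a common biological coefficient of variation of 51.2% against 9.06%, and of 33.8% once the replicate number entered as a block. Simulated 1-unit log2 changes were called in 99% of cases in the MEF design and in 0% in the liver design (1% with the replicate block). Few genes were changed in the simulation, and they were picked without regard to the 10 genes. It therefore gives no limit of detection for a single gene such as *Pdk1*.

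**Figure D5:**
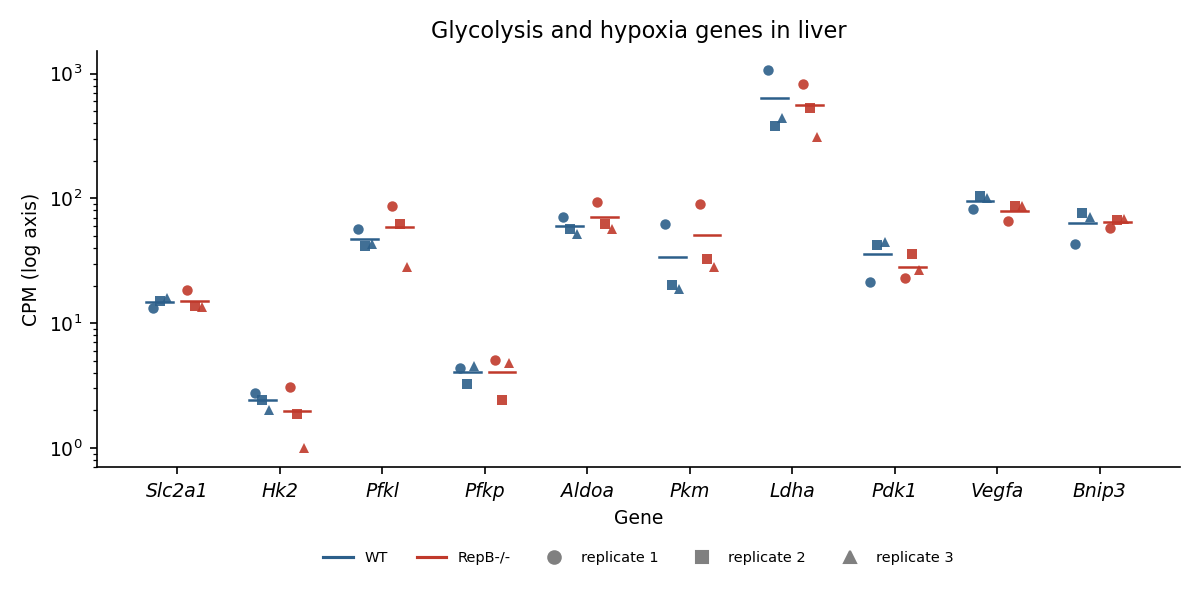
CPM (log axis) of the 10 genes in each liver library, WT in blue and RepB-/- in red, with a symbol for each replicate number and a bar at the mean. Replicate 1 (circles) is the highest library of its genotype for *Ldha*, *Pkm*, *Aldoa*, *Pfkl* and *Hk2* and the lowest for *Pdk1*, *Vegfa* and *Bnip3* in both genotypes.

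Of the single genes in liver, *Ldha* had 822, 530 and 312 CPM in RepB-/- replicates 1, 2 and 3 and 1074, 382 and 443 CPM in the WT libraries, so that replicate 1 was highest in both. *Pkm*, which adult hepatocytes largely replace by *Pklr*, had 90.6, 32.9 and 28.2 CPM in RepB-/- and 61.8, 20.3 and 18.8 CPM in WT. Each RepB-/- library exceeded the WT library of its number. The numbers mark chiefly replicate 1, and the share of all genes in such an order was not counted. The *Pkm* difference was 0.59 (SE 0.63), and 0.61 (SE 0.17) with the replicate block, which did not pass either (adjusted p = 1 and 0.561). The summed erythroid markers were 2325, 1113 and 660.9 CPM in RepB-/- and 810.5, 150.3 and 135.7 CPM in WT, higher in RepB-/- at each number. No erythroid marker passed by edgeR in the main fit. With the replicate block *Slc4a1* passed (4.51, SE 0.26, adjusted p = 0.0174), at 2 and 4 counts in WT replicates 2 and 3, and the other erythroid markers tested did not. The summed leukocyte markers ran from 182.2 to 353.5 CPM in RepB-/- and from 164.2 to 316.4 CPM in WT. The part of such cells in the *Pkm* values was not tested.

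*Pdk1* had 22.9, 35.5 and 26.5 CPM in RepB-/- liver and 21.4, 42.2 and 44.5 CPM in WT, a difference of -0.35 (SE 0.33), opposite in sign to that in MEFs. *Vegfa*, which hepatocytes secrete to the sinusoidal endothelium, had 65.4, 86.6 and 87.2 CPM in RepB-/- and 81.4, 104.7 and 100.4 CPM in WT. Each RepB-/- library lay under the WT library of its number, an order whose share among all genes was not counted. The *Vegfa* difference of -0.26 (SE 0.22) was not called. For *Bnip3* the values were 57.5, 66.6 and 68.5 CPM against 43.0, 76.0 and 70.5 CPM (0.02, SE 0.25). *Slc2a1* lay between 13.3 and 18.4 CPM in all 6 libraries (0.04, SE 0.21). Neither gene had a direction that held when both replicate 1 libraries were left out.

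*Pfkl* had 86.3, 61.9 and 28.1 CPM in RepB-/- and 56.6, 41.6 and 42.9 CPM in WT, and *Aldoa* 93.0, 62.8 and 57.2 CPM against 71.2, 56.4 and 51.7 CPM. Their differences were 0.32 (SE 0.40) and 0.25 (SE 0.25). For *Aldoa*, as for *Pkm*, each RepB-/- library exceeded the WT library of its number, an order likewise not counted over all genes. The *Aldoa* difference with the replicate block was 0.23 (SE 0.18). *Hk2* (0.99 to 3.10 CPM) and *Pfkp* (2.42 to 5.02 CPM) were scarce in every liver library. Per length, *Ldha* led in WT liver at 793.3 ± 520.5 TPM (a share of transcripts corrected for length, SD, n = 3), followed by *Vegfa* (86.6 ± 7.64), *Aldoa* (77.9 ± 23.1) and *Bnip3* (65.2 ± 12.4), which lay within the sums of their neighbouring SDs. *Pkm* (28.4 ± 23.2), *Pfkl* (24.2 ± 6.86), *Pdk1* (13.3 ± 3.22), *Slc2a1* (8.39 ± 0.0708), *Pfkp* (2.67 ± 0.390) and *Hk2* (0.783 ± 0.189) followed, of which *Pkm* and *Pfkl* lay within theirs. The hepatocyte genes *Pklr* and *Slc2a2* had mean WT values of 95.9 and 61.0 TPM. In MEFs both were at most 0.0331 FPKM.

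The other pathway genes gave no calls in liver by edgeR either, with none of 17 glycolytic enzymes, 19 transport and pyruvate genes, 20 other HIF targets and 9 HIF regulators tested past the threshold. At an unadjusted p under 0.05 stood 1 HIF target and 1 regulator, beside 502 of all 16080 genes tested. *Gapdh*, far apart between the genotypes in MEFs, had a difference of -0.03 (SE 0.26) in liver.

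Whether the genotype difference itself differed between MEFs and liver was tested by the interaction of genotype and tissue over 15208 genes, of which 0.388% passed. None of the 10 genes passed by edgeR, and 3 had an unadjusted p under 0.05, which were *Pdk1* (MEF minus liver 1.18, SE 0.37, adjusted p = 0.192), *Slc2a1* (-0.59, SE 0.19, adjusted p = 0.206) and *Vegfa* (-0.84, SE 0.29, adjusted p = 0.222). The share of all genes at that unadjusted level is not given here, so the 3 are not read as a result. With the term for replicate 1 of liver, 5.92% of all genes passed, and *Pdk1* (1.12, SE 0.21, adjusted p = 0.0157) and *Vegfa* (-0.84, SE 0.21, adjusted p = 0.0452) were among them. With the replicate number as a block in place of that term, none of the 10 passed, at 1.13 (SE 0.23, adjusted p = 0.0667) for *Pdk1* and -0.81 (SE 0.23, adjusted p = 0.125) for *Vegfa*. Of the other pathway genes *Gapdh* alone passed without that term (-1.51, SE 0.26, adjusted p = 0.0459). The tissues were counted on different genome builds, with reads assigned by different tables of genes, and this cannot be told apart from tissue in the interaction.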

How the data were processed

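RNA-seq of 6 MEF and 6 liver libraries was analysed. Brain (6 libraries) was not analysed here. The authors deposited whole-number read counts per gene for each library, with FPKM for MEFs (on GRCm39 coordinates) and TPM for liver (on GRCm38 coordinates). FPKM of liver were deposited by the authors too and not used here. The study's methods name Cutadapt and Hisat2. The submitters' processing notes, per the labels, list Trim Galore 0.4.1, STAR 2.7.0 and HTSeq 0.12.4, and which of these made each table is not given in the sources used here. Reads of near-identical genes may have been split or dropped by that counting.

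Counts were fitted within each tissue with edgeR 4.0.16 in R 4.3.3 (TMM, filterByExpr, quasi-likelihood test, Benjamini-Hochberg, threshold 0.05), and the tissues were compared by an interaction term over genes in both tables. DESeq2 1.42.0, other size factors, other filters, a replicate block, a term for replicate 1 of liver and leaving out libraries were alternatives, and library totals without TMM were added after seeing the data. Scripts were tested on simulated data, where 71% of changes of 0.5 and 99% of changes of 1 (log2) were called in MEFs. The main liver fit held no replicate term, and replicate numbers entered only in the alternatives. The deviations of same-numbered liver libraries from their genotype means correlated at 0.71, 0.36 and 0.37. Libraries 2 and 3 correlated as well across numbers (0.40 and 0.41), so the numbers mark chiefly replicate 1. They did not pair the MEF libraries (-0.01, -0.04 and 0.00). Depth allows a count of 0 to hide up to 3 reads per library, a limit of counting error only. From each other list, the text names the 4 called genes with the largest change in MEFs (1 of them is not reported here), and *Pgk1*, *Pdk3*, *Hif1a* and *Epas1*. The 10 genes and all lists were chosen with earlier results of these data known. Promoter sequences are from RefSeq (GRCm38.p6). Figures were drawn with matplotlib 3.10.9 in Python 3.11.15.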

Additional observations from a re-analysis of the deposited data

Results flagged for a closer look

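The genotype difference of *Gapdh* differed between the tissues by the test of the interaction, with a log2 fold change in MEFs minus that in liver of -1.513 (SE 0.26, adjusted p = 0.0459, edgeR's quasi-likelihood test). All 3 RepB-/- MEF libraries lay at 81.7 to 82.9 CPM and all 3 WT MEF libraries at 225.7 to 255.7 CPM, whereas the liver difference was -0.03 (SE 0.26). Without liver RepB-/- replicate 2 the difference between tissues was -1.43 and no longer passed (adjusted p = 0.061). Over the other alternatives its adjusted p ran from 0.0033 to 0.0403. Of the near-identical copies, *Gapdh-ps15* was listed on the Y chromosome, with 548 to 906 counts in the liver libraries. All of these but RepB-/- replicate 2 held at most 0.0292 CPM of summed Y-linked RNA. The part of shared reads in the *Gapdh* counts was not tested.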

How the results depend on the processing

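The liver gave few calls under any setting, which were 80 genes by DESeq2, 8 with the replicate block, 9 with the term for replicate 1, 2 without both replicate 1 libraries, 3 without RepB-/- replicate 2 and with that term, 0 without a filter, 0 with library totals and 0 to 4 with 1 library left out, and none of them was among the 10 genes. The interaction gave 901 genes with the term for replicate 1 (2 of the 10 genes), 192 with the replicate block, 19 with library totals and 17 without liver RepB-/- replicate 2. The cause of these changes was not tested. In MEFs the count ran from 3956 to 5233 genes with 1 library left out, and 4 to 6 of the 10 genes were called. The replicate block kept the MEF calls of *Slc2a1*, *Pfkl*, *Pdk1* and *Vegfa* and lost that of *Bnip3* (0.33, adjusted p = 0.0506), and it changed no other call among the 10 genes in MEFs or liver. Those 4 genes kept their direction and their call in every MEF alternative.

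Directions turned for values that passed in no setting. With library totals *Pfkp* in MEFs was -0.0801, *Pkm* in MEFs -0.11, *Epas1* in MEFs -0.0909, and in liver *Slc2a1* was -0.0945, *Pfkp* -0.17 and *Bnip3* -0.13. *Pkm* in MEFs was -0.0076 with DESeq2 size factors and -0.00203 with a minimum of 10 counts. In liver without both replicate 1 libraries *Ldha* was 0.0327, *Slc2a1* -0.18, *Pfkp* -0.12 and *Bnip3* -0.11. *Pfkp* in liver was -0.044 with the replicate block and -0.0108 with the term for replicate 1, and *Pfkl* in liver was -0.0588 without RepB-/- replicate 2 and with that term. The interaction of *Pfkp* was -0.20 without liver RepB-/- replicate 2. Leaving out 1 library moved *Pkm* in MEFs from -0.0574 to 0.0662 and *Epas1* in MEFs from -0.09 to 0.14, and in liver *Hk2* from -0.74 to 0.0555, *Ldha* from -0.58 to 0.43, *Slc2a1* from -0.12 to 0.13, *Pfkl* from -0.0579 to 0.66, *Pfkp* from -0.17 to 0.27, *Pkm* from -0.13 to 1.38 and *Bnip3* from -0.19 to 0.18. Differences near 0.2 in MEFs depended on the scaling, and the simulated liver design without a replicate term called no change of 1 (log2).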
